A study of Homo sapiens with 12 samples.

Results

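The chemokine genes examined here are CXCL9, CXCL10, CXCL11, CCL5, CXCL8, CXCL1, CXCL2, CCL2 and CCL20. They were taken by gene symbol from the platform annotation of the arrays, with every probe set (a group of short probes that together read 1 transcript) that carries 1 of these symbols, which gave 9 of 11963 named genes and 12 of 22277 probe sets. Gene expression had been measured in LNCaP, an androgen-responsive line established from prostate cancer, on 12 arrays of total RNA. The 4 groups were LNCaP cells transfected with miR-130a, with miR-203, with miR-205, or with a scramble microRNA that served as control, and each had 3 arrays named biological replicates. All groups, the control included, were transfected, so no array shows untransfected cells, and all came from 1 cell line. No label states the amount of microRNA or the time from transfection to harvest. Each comparison with scramble asked which transcripts differed when that microRNA was transfected.

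Chemokines are small secreted proteins that bind receptors on leukocytes and guide their movement. CXCL9, CXCL10 and CXCL11 bind CXCR3 on activated T cells and natural killer cells, and CCL5 draws T cells and monocytes. CXCL8, CXCL1 and CXCL2 draw neutrophils through CXCR2, CCL2 draws monocytes through CCR2, and CCL20 draws cells that carry CCR6. CXCL10, CXCL11 and CCL5 are textbook responders to interferons and to viral RNA sensors, and CXCL9 is one to interferon gamma. Transcription of the CXCR2 ligands, CCL2 and CCL20 is known to depend on NF-kappaB in epithelial cells.

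Promoter sequences were available for 7 of the 9 genes, in RefSeq on GRCh38.p14. Of the 9 genes, 6 lie on chromosome 4, where CXCL9, ART3, CXCL10 and CXCL11 follow each other among protein-coding genes. Shown are the 250 bases before the start site of the 3 neighbouring CXCR3 ligands and of CXCL8, because the 3 neighbours gave unlike readings on the same arrays and CXCL8 is the CXCR2 ligand with any reading above background. The coordinates are chr4:76023498-76023747 for CXCL10, chr4:76036071-76036320 for CXCL11 and chr4:76007510-76007759 for CXCL9, all on the minus strand, and chr4:73740319-73740568 for CXCL8 on the plus strand. Each is written 5′ to 3′ in the direction of the gene, and capitals mark the motif matches described after them.
CXCL10: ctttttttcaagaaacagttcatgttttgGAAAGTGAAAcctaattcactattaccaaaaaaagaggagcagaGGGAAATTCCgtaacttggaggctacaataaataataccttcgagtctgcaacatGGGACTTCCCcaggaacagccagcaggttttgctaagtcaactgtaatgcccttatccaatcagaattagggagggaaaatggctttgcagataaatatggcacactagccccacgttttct
CXCL11: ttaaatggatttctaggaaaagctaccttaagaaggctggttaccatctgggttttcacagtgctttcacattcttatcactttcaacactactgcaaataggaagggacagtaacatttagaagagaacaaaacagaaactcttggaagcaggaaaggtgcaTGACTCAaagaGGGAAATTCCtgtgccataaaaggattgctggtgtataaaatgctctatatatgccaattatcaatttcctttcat
CXCL9: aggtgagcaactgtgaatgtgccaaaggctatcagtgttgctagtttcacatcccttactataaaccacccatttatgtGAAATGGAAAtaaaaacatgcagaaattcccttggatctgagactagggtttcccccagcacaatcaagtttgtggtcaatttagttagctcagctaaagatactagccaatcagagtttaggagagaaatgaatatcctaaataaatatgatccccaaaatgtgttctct
CXCL8: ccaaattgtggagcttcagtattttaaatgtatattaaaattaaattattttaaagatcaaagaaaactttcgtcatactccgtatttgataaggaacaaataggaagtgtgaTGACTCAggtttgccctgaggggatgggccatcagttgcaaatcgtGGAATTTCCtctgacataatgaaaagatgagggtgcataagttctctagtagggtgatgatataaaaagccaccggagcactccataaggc

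Motifs were searched on both strands of the 300 bases from 250 before to 50 after the start site, and a match describes letters only, not a bound site. The interferon-stimulated response element, searched as GAAA, any 2 bases and GAAA again, is present in 3.57% of the 35116 promoters of the table. It was found in CXCL10, with its first base at -221 from the start site, and in CXCL9 at -171. The kappaB consensus, bound by NF-kappaB and present in 11.3% of promoters, was found in CXCL10 at -177 and -122 and in CXCL11 at -76. The kappaB run GGAATTTCC, present in 0.461% of promoters, lies in CXCL8 at -91 and, read on the other strand, inside the first CXCL10 match and inside the CXCL11 match. The AP-1 motif TGANTCA, present in 7.71% of promoters, was found in CXCL11 at -87 and in CXCL8 at -137. Of the genes whose sequence is not printed, CXCL1 and CXCL2 hold kappaB matches that begin at -79 and -78, and CCL20 holds 1 kappaB consensus match at -79.

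On these arrays values are log2 and start at a shared lowest value of 2.36, which 29.6% to 31.6% of each array's probe sets take. The array medians lie between 2.76 and 2.78, and a probe set is called dim in a group when it exceeds the array's own median on 0 of the group's 3 arrays. A fold against a dim group is therefore given as a bound, "at least N-fold", with the dim arrays set at the median or at their own value, whichever was higher. Differences were tested with limma's moderated test over the 6821 genes above the array median on at least 3 arrays, with p-values adjusted by Benjamini-Hochberg over all of them and a threshold of 0.05. A fitted difference from a dim group is no bound, and where one is printed it only accompanies its test. All 3 microRNA groups are compared with the same scramble arrays, and levels of different probe sets are not compared.

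Of the 9 chemokine genes, 3 were bright enough to be tested: CXCL10, CXCL11 and CCL5. These passed the filter because they were bright in the miR-130a and miR-203 groups, so their differences from the dim groups follow in part from the filter. All 3 were higher in miR-130a arrays than in scramble arrays, where 12% of all tested genes were called higher, and all 3 were higher in miR-203 arrays than in scramble arrays, where 17.3% were. For all 3 the arrays of those groups did not overlap those of scramble either, as was so for 19.3% of tested genes higher with miR-130a and 21.6% higher with miR-203. In miR-205 against scramble 0 of the 3 were called in either direction (11.3% of tested genes were called higher and 14.8% lower) and 0 of the 3 had an unadjusted p under 0.05 by limma. The remaining genes were CXCL8, above the array median on 2 arrays, and CXCL9, CXCL1, CXCL2, CCL2 and CCL20, above it on 0 of 12.

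**Figure D1:**
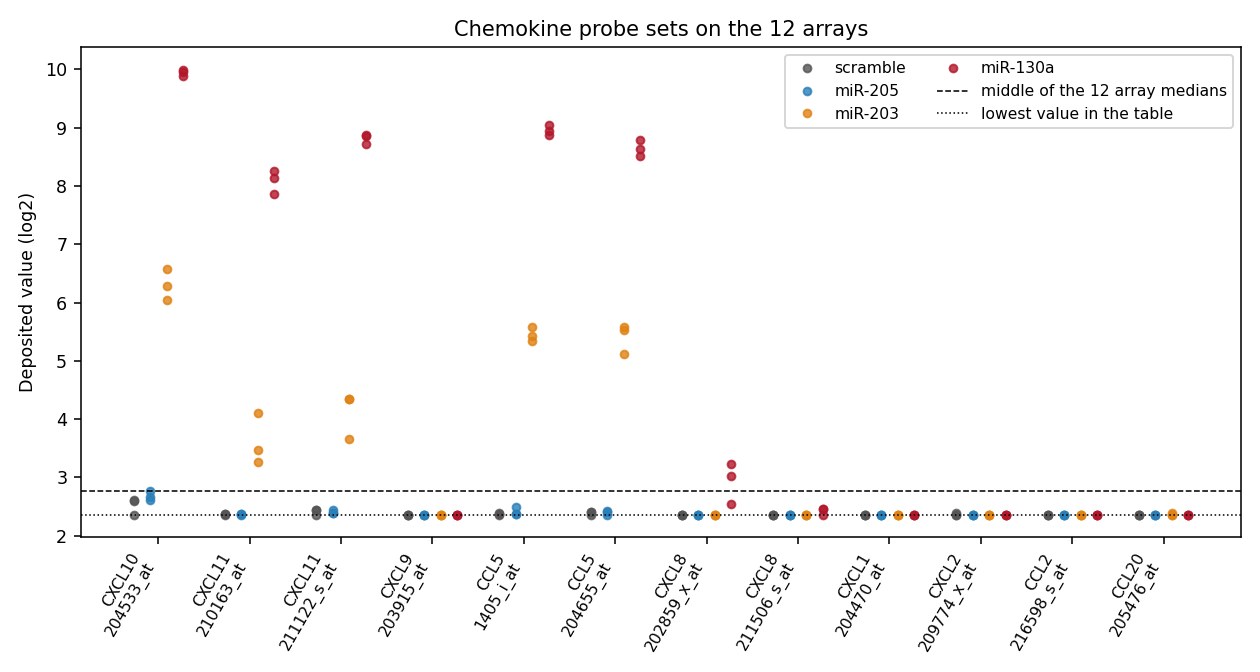
Deposited log2 value of each chemokine probe set on each of the 12 arrays, by group. Points are arrays, the dashed line is the middle of the 12 array medians and the dotted line is the lowest value. CXCL10, CXCL11 and CCL5 are ordered miR-130a above miR-203 above the other 2 groups with no overlap, and the probe sets of the remaining genes lie at or near the lowest value of 2.36 apart from CXCL8 in miR-130a arrays.

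CXCL10 encodes a CXCR3 ligand induced by interferons. It read 9.995, 9.96 and 9.89 on the miR-130a arrays, a mean of 9.95 ± 0.054 (SD, n = 3). On the miR-203 arrays it read 6.28, 6.57 and 6.05, a mean of 6.30 ± 0.26 (SD, n = 3). Both groups lay wholly above all 6 other arrays, and they did not overlap each other. Here and for the other genes, more cells with the transcript and more transcript per cell cannot be told apart. The miR-205 arrays read 2.61, 2.67 and 2.76 and the scramble arrays 2.36, 2.61 and 2.60, all at or under the array median. The lowest miR-205 reading lay under the highest scramble reading, so those groups overlapped. Against scramble the miR-130a level was at least 146-fold higher (adjusted p = 3.80e-14 by limma) and the miR-203 level at least 11.6-fold higher (adjusted p = 1.11e-10). Against miR-205, which is dim as well, the bounds were at least 146-fold and at least 11.6-fold (adjusted p = 5.00e-14 and 2.18e-10). With the dim arrays set at the 60th percentile of the array the bounds against scramble were 78.7-fold and 6.28-fold.

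CXCL11, a CXCR3 ligand whose gene lies next to that of CXCL10, has a pair of probe sets. The brighter one, which stands for the gene in the test, read 8.87, 8.85 and 8.71 on the miR-130a arrays. On the miR-203 arrays it read 4.35, 3.66 and 4.35, a mean of 4.12 ± 0.40 (SD, n = 3), so replicate 2 was the lowest of that group. On all 6 miR-205 and scramble arrays it lay between 2.36 and 2.43, and the miR-203 arrays were all above those. The level was at least 66.3-fold higher in miR-130a arrays than in scramble arrays (adjusted p = 1.72e-12 by limma). The miR-203 level was at least 2.57-fold higher than scramble (adjusted p = 1.79e-06), the smallest of the bounds of the 3 genes in that comparison. Set against the 60th percentile these bounds were 35.8-fold and 1.39-fold.

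The other CXCL11 probe set read 8.14, 8.25 and 7.86 with miR-130a and 3.26, 3.47 and 4.11 with miR-203. Its lowest miR-203 reading was on replicate 1, while that of the brighter probe set was on replicate 2. The miR-205 and scramble arrays lay between 2.36 and 2.38. In a limma fit over the 10067 bright probe sets the miR-130a level was at least 39.9-fold above scramble (adjusted p = 4.62e-11, with 11.5% of probe sets called higher). The miR-203 level was at least 1.81-fold above scramble (adjusted p = 0.000123, with 16.0% called higher). Both probe sets placed the 4 groups in the same order, and both gave a bound for miR-203 under 3-fold. With the dim arrays at the 60th percentile the miR-203 mean of this probe set lay under that level and gave no bound, and with them 1 log2 above the lowest value the bound was 1.19-fold.

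CXCL9 is the third CXCR3 ligand and lies in the same stretch of chromosome 4. Its only probe set sat at the lowest value, 2.36, on all 12 arrays. It was thus dim in the same miR-130a and miR-203 arrays in which CXCL10 and CXCL11 were read, and no fold can be given for it. A reading at the lowest value does not separate an absent transcript from one that this probe set does not detect.

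CCL5 encodes an attractant of T cells and monocytes and is on chromosome 17. It has a pair of probe sets, and the brighter one, used for the gene, read 8.95, 9.05 and 8.87 with miR-130a. With miR-203 it read 5.59, 5.34 and 5.42, a mean of 5.45 ± 0.13 (SD, n = 3). The miR-205 arrays read 2.49, 2.38 and 2.38 and the scramble arrays 2.38, 2.36 and 2.39, and those groups overlapped while the other groups stood apart from them and from each other. The miR-130a level was at least 73.2-fold above scramble (adjusted p = 3.99e-15 by limma) and the miR-203 level at least 6.44-fold (adjusted p = 3.35e-11). The bounds at the 60th percentile were 39.5-fold and 3.48-fold.

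The other CCL5 probe set read 8.63, 8.78 and 8.52 with miR-130a and 5.59, 5.53 and 5.11 with miR-203. On the miR-205 and scramble arrays it lay between 2.36 and 2.43. The bounds against scramble were at least 59.0-fold for miR-130a (adjusted p = 2.35e-13 by limma over probe sets) and at least 6.27-fold for miR-203 (adjusted p = 1.68e-09). Here too the 4 groups kept the order seen with the brighter probe set.

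The miR-130a and miR-203 groups were both bright for CXCL10, CXCL11 and CCL5, so the difference between them is measured and not a bound. All 3 genes were higher with miR-130a, in a comparison where 21.1% of tested genes were called higher. CXCL10 differed by 3.65 ± 0.12 log2 (SE), which is 12.5-fold, with adjusted p = 3.30e-10 by limma. CCL5 differed by 3.51 ± 0.08, or 11.4-fold, with adjusted p = 1.26e-11. CXCL11 differed by 4.69 ± 0.14, or 25.8-fold, with adjusted p = 3.16e-10. The spread behind these SEs and p-values was pooled over all 4 groups, the dim miR-205 and scramble groups included. For CXCL11 the SD was 0.086 with miR-130a and 0.396 with miR-203, but 0.026 with miR-205 and 0.043 with scramble. The SEs and p-values of this comparison may therefore be too small. The second probe sets gave 22.1-fold for CXCL11 (adjusted p = 3.23e-09) and 9.41-fold for CCL5 (adjusted p = 1.43e-09), where 20.7% of probe sets were called higher. Whether the CXCL11 difference exceeds that of the other 2 genes was not tested.

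**Figure D2:**
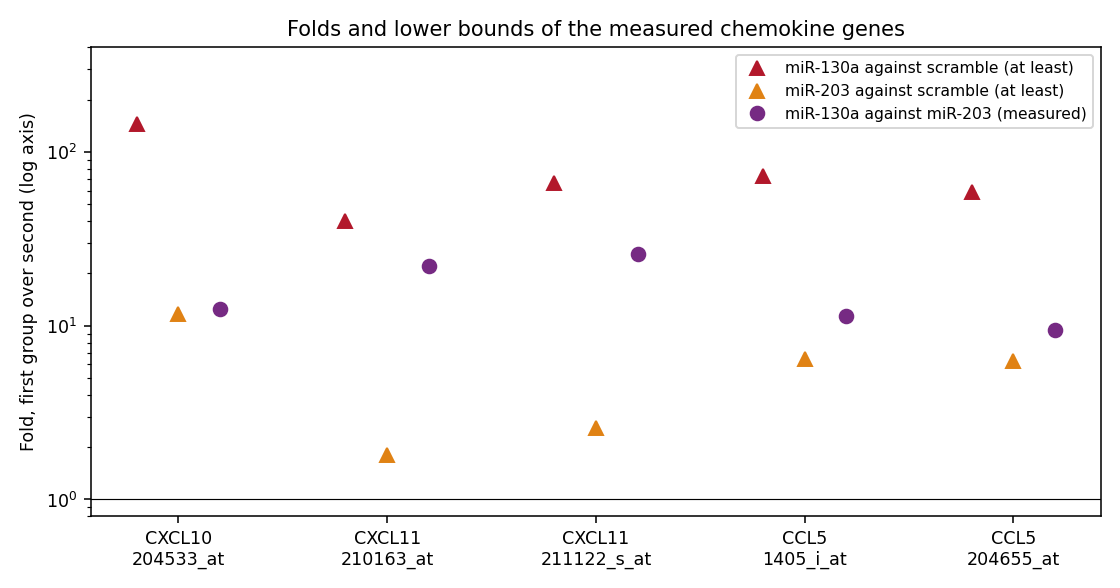
Fold difference of the CXCL10, CXCL11 and CCL5 probe sets on a log axis, for miR-130a against scramble, miR-203 against scramble and miR-130a against miR-203; triangles are lower bounds against a dim group and circles are measured folds. The bounds for miR-130a reach from 39.9 to 146, those for miR-203 from 1.81 to 11.6, and the measured folds between both groups from 9.41 to 25.8.

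With miR-205 the 3 tested genes could not be told from scramble. CXCL10 differed by 0.16 ± 0.12 log2 (adjusted p = 0.357 by limma), CXCL11 by -0.01 ± 0.14 (adjusted p = 0.990) and CCL5 by 0.04 ± 0.08 (adjusted p = 0.756). Because both groups were dim for each of the 3, these values carry no fold, and a difference in transcript level under the array median would not have been detectable. Both microRNAs with bright arrays also stood above miR-205, with all 3 genes higher in miR-130a (18.2% of tested genes called higher) and all 3 higher in miR-203 (21.0% called higher). For CXCL11 and CCL5 those bounds were at least 66.2-fold and at least 73.1-fold for miR-130a, and at least 2.56-fold and at least 6.43-fold for miR-203.

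CXCL8, also known as interleukin 8, draws neutrophils and has a pair of probe sets. The brighter one read 3.22, 3.03 and 2.54 with miR-130a and 2.36 on each of the 9 other arrays. All 3 miR-130a arrays were therefore above the other 9, but only replicates 1 and 2 exceeded the array median, so the gene was not tested. Averaged over the group, the miR-130a level was at least 1.12-fold above scramble, and the same bound held against miR-203 and miR-205. The other probe set read 2.46, 2.46 and 2.36 with miR-130a and 2.36 on the others, under the median on all 12. With no filter on dim genes, a limma fit over 11963 genes called CXCL8 higher in miR-130a than in scramble (adjusted p = 0.0372), miR-203 (adjusted p = 0.0212) and miR-205 (adjusted p = 0.0255). In those comparisons 624, 1215 and 1045 of the 11963 genes were called higher. Because the 9 other arrays share 1 value, the spread of CXCL8 comes from the miR-130a arrays alone, and these p-values may be too small.

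The other neutrophil-attracting genes gave no readings to compare. CXCL1 lay within 0.01 of the lowest value on all 12 arrays, and CXCL2 did so on 11 with a highest reading of 2.39 on scramble replicate 2. CCL2, the monocyte attractant, was within 0.01 of the lowest value on all 12. CCL20 was at it on 11, with 2.39 on miR-203 replicate 1. For these 4 genes no group was above the array median and no difference can be stated.

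The 3 tested genes had like patterns over the arrays. Pearson's r over the 12 arrays was 0.998 between CXCL10 and CCL5, 0.965 between CXCL10 and CXCL11 and 0.977 between CXCL11 and CCL5. These values describe arrays of 4 groups that share the same large group differences, so they say little about arrays within a group.

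Outside the 9 genes, those most like CXCL10 by r over the 12 arrays were the antiviral gene RSAD2 (r = 0.998), the acyltransferase gene PLAAT4 (0.995) and the RNA sensor gene RIGI (0.995). For CCL5 they were PLAAT4 (0.997), RIGI (0.996) and the interferon-induced IFI44 (0.994). For CXCL11 they were ULBP2, a ligand of the natural killer receptor NKG2D (0.997), the fibrillin gene FBN1 (0.987) and TNFAIP3, a restrainer of NF-kappaB (0.985). Between miR-130a and miR-203, RSAD2 differed 5.57-fold, PLAAT4 4.43-fold, RIGI 5.51-fold and IFI44 3.05-fold, against 12.5-fold for CXCL10 and 11.4-fold for CCL5. ULBP2 differed 7.34-fold and TNFAIP3 3.31-fold, against 25.8-fold for CXCL11. No difference between these folds was tested.

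**Figure D3:**
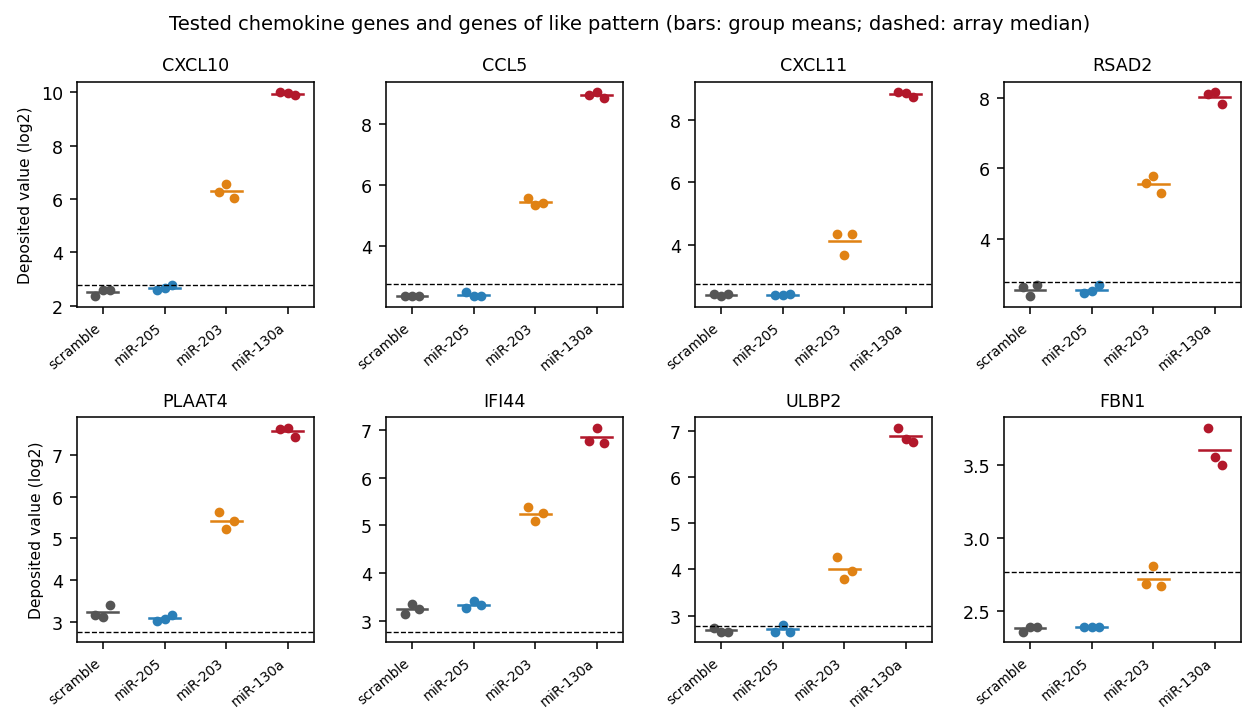
Deposited log2 values on the 12 arrays of CXCL10, CCL5 and CXCL11 and of RSAD2, PLAAT4, IFI44, ULBP2 and FBN1, genes of like pattern, by group. Bars are group means and the dashed line is the middle of the 12 array medians. Each has its highest group mean in miR-130a and its second highest in miR-203, with FBN1 above the array median on 1 of 3 miR-203 arrays.

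No further chemokine was read above background. Of 32 other chemokine genes 25 are on the arrays, all 25 were above the array median on 0 of 12 arrays, and 11 of them lay within 0.01 of the lowest value throughout. Together with CXCL9, CXCL1, CXCL2, CCL2 and CCL20, these 25 were dim on the same miR-130a and miR-203 arrays that read CXCL10, CXCL11 and CCL5.

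Of 22 chemokine receptor genes 20 are on the arrays and 2 were tested, while 18 were above the median on no array. CXCR4, the receptor of CXCL12, read 3.83, 4.13 and 3.29 with miR-130a and at most 2.62 elsewhere by its brightest probe set, at least 1.98-fold above scramble (adjusted p = 7.65e-05 by limma). Its other 2 probe sets were above the median on 0 arrays. CXCR4 passed the brightness filter only because it was bright with miR-130a, so its difference follows in part from the filter. ACKR3, a scavenging receptor that binds CXCL11 and CXCL12, read at most 7.17 in scramble arrays. It fell by 0.35 ± 0.07 with miR-130a (adjusted p = 0.00226), rose by 1.19 ± 0.07 with miR-203 (adjusted p = 5.94e-08) and rose by 0.30 ± 0.07 with miR-205 (adjusted p = 0.00583). Its direction with miR-130a was thus opposite to that of its ligand CXCL11, and with miR-203 the same.

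Genes that sense viral RNA or take part in interferon signalling, listed as regulators of chemokine genes, were higher in part of the list. The list is not limited to inducers, and USP18, a negative regulator, was among the rises with both miR-130a and miR-203. Of 26 such genes 24 are on the arrays and 17 were tested. With miR-130a 9 rose, 0 fell and 8 did not pass, with a median difference of 0.43 log2 against -0.01 over all tested genes, of which 12% were called higher and 11.6% lower. With miR-203 7 rose, TYK2 and IRF3 fell and 8 did not pass. The median was 0.20 against 0.01 over all tested genes, of which 17.3% were called higher and 18.9% lower. The calls of IRF3 and of MAVS, which was among those that rose with miR-203, were each lost under 5 of 21 alternatives. That of IFNGR1 with miR-130a was lost under 1. With miR-205 IFNGR1 and MAVS rose, IRF7 fell and 14 did not pass, beside 11.3% of all tested genes called higher and 14.8% lower, and the calls of IFNGR1 and MAVS were each lost under 6 of 21 alternatives (adjusted p up to 0.1 and 0.0854). In this list and the following ones, genes named without a value were named after their values were seen.

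IFNB1, which encodes interferon beta, read 5.28, 5.06 and 4.87 with miR-130a, at least 4.95-fold above scramble (adjusted p = 3.95e-10 by limma). With miR-203 it read 2.74, 2.47 and 2.49, under the array median on all 3 arrays (adjusted p = 0.137), whereas CXCL10, CXCL11 and CCL5 were above the median on all 3. IFNB1, counted among the risen genes, passed the brightness filter only through its miR-130a arrays. Its difference there follows in part from the filter. RIGI was at least 34.7-fold above scramble with miR-130a and at least 6.30-fold with miR-203. IFIH1, the sensor MDA5, rose by 3.03 ± 0.19 with miR-130a and 2.09 ± 0.19 with miR-203, or 1.75 and 1.08 as the mean of its 2 probe sets. IRF9, the DNA-binding part of the complex ISGF3, rose by 2.69 ± 0.10 with miR-130a (adjusted p = 6.42e-10) and by 1.14 ± 0.10 with miR-203 (adjusted p = 3.59e-06).

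Among NF-kappaB pathway genes 16 of 22 on the arrays were tested. With miR-130a 7 rose, 0 fell and 9 did not pass, with a median of 0.16, beside 12% of all tested genes called higher and 11.6% lower. With miR-203 NFKB1 and IRAK1 rose, MYD88 fell and 13 did not pass, with a median of -0.05, beside 17.3% called higher and 18.9% lower. With miR-205 IRAK1 and NFKBIA rose, TNIP1 fell and 13 did not pass, beside 11.3% and 14.8%. The call of NFKB1 with miR-203 was lost under 4 of 21 alternatives (adjusted p up to 0.0673) and that of NFKBIA with miR-205 under 8 (adjusted p up to 0.135). Among the rises with miR-130a, the calls of NFKB2 and NFKBIE were lost under 6 and 7 of 21 (adjusted p by limma up to 0.119 and 0.138). TNFAIP3 was at least 3.38-fold above scramble with miR-130a (adjusted p = 7.26e-08 by limma) and differed by 0.30 ± 0.12 with miR-203 (adjusted p = 0.0632, but from 0.0261 to 0.0443 without miR-130a replicate 1, miR-130a replicate 3 or miR-203 replicate 2). NFKBIA, the inhibitor I kappa B alpha, rose by 0.79 ± 0.11 with miR-130a (adjusted p = 0.000197) and differed by -0.07 with miR-203 (adjusted p = 0.664). TNIP1, a partner of TNFAIP3, rose by 0.74 ± 0.10 with miR-130a (adjusted p = 0.000182) and fell by 0.74 ± 0.10 with miR-205 (adjusted p = 0.000157). MYD88, the adaptor of Toll-like receptors, rose by 0.57 ± 0.12 with miR-130a (adjusted p = 0.00515) and fell by 1.00 ± 0.12 with miR-203 (adjusted p = 5.72e-05).

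Cytokines that commonly accompany chemokines were mostly dark. Of 17 on the arrays 15 were above the median on no array, among them IL6, TNF, IL1B and IFNG, none of which exceeded 2.38. TNFSF10, which encodes TRAIL, was at least 5.39-fold above scramble with miR-130a (adjusted p = 1.09e-07 by limma) and at least 1.3-fold with miR-203 (adjusted p = 0.00474, above the median on 2 of 3 arrays). As the mean of its 3 probe sets the fitted differences were 1.58 (adjusted p = 9.04e-08 by limma) and 0.26 log2 (adjusted p = 0.0340), which are no bounds. TNFSF10, like TNFAIP3, passed the brightness filter through the miR-130a and miR-203 arrays alone, so its differences follow in part from the filter. LIF, a cytokine of the interleukin 6 family, rose by 0.40 ± 0.13 with miR-130a (adjusted p = 0.0481), a call lost under 12 of 21 alternatives.

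Of 10 AP-1 and C/EBP factor genes, which act at the promoter of CXCL8, 7 were tested. With miR-130a JUN, JUNB, ATF3 and CEBPD rose (12% of all tested genes were called higher), with miR-203 JUNB rose and CEBPB fell (17.3% higher and 18.9% lower), and with miR-205 JUN, ATF3 and CEBPB fell (14.8% lower). The call of ATF3 with miR-130a was lost under 5 of 21 alternatives (adjusted p up to 0.104) and that of JUN with miR-205 under 6 (adjusted p up to 0.0927). JUN rose by 0.84 ± 0.08 with miR-130a (adjusted p = 1.23e-05 by limma). CEBPB fell by 0.41 ± 0.08 with miR-203 (adjusted p = 0.00125) and by 0.70 ± 0.08 with miR-205 (adjusted p = 2.91e-05), and differed by 0.15 with miR-130a (adjusted p = 0.192). Of the 50 calls against scramble in the receptor, interferon, NF-kappaB, cytokine and AP-1 lists, 12 were lost under at least 1 alternative, with adjusted p from 0.0507 to 0.180.

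**Figure D4:**
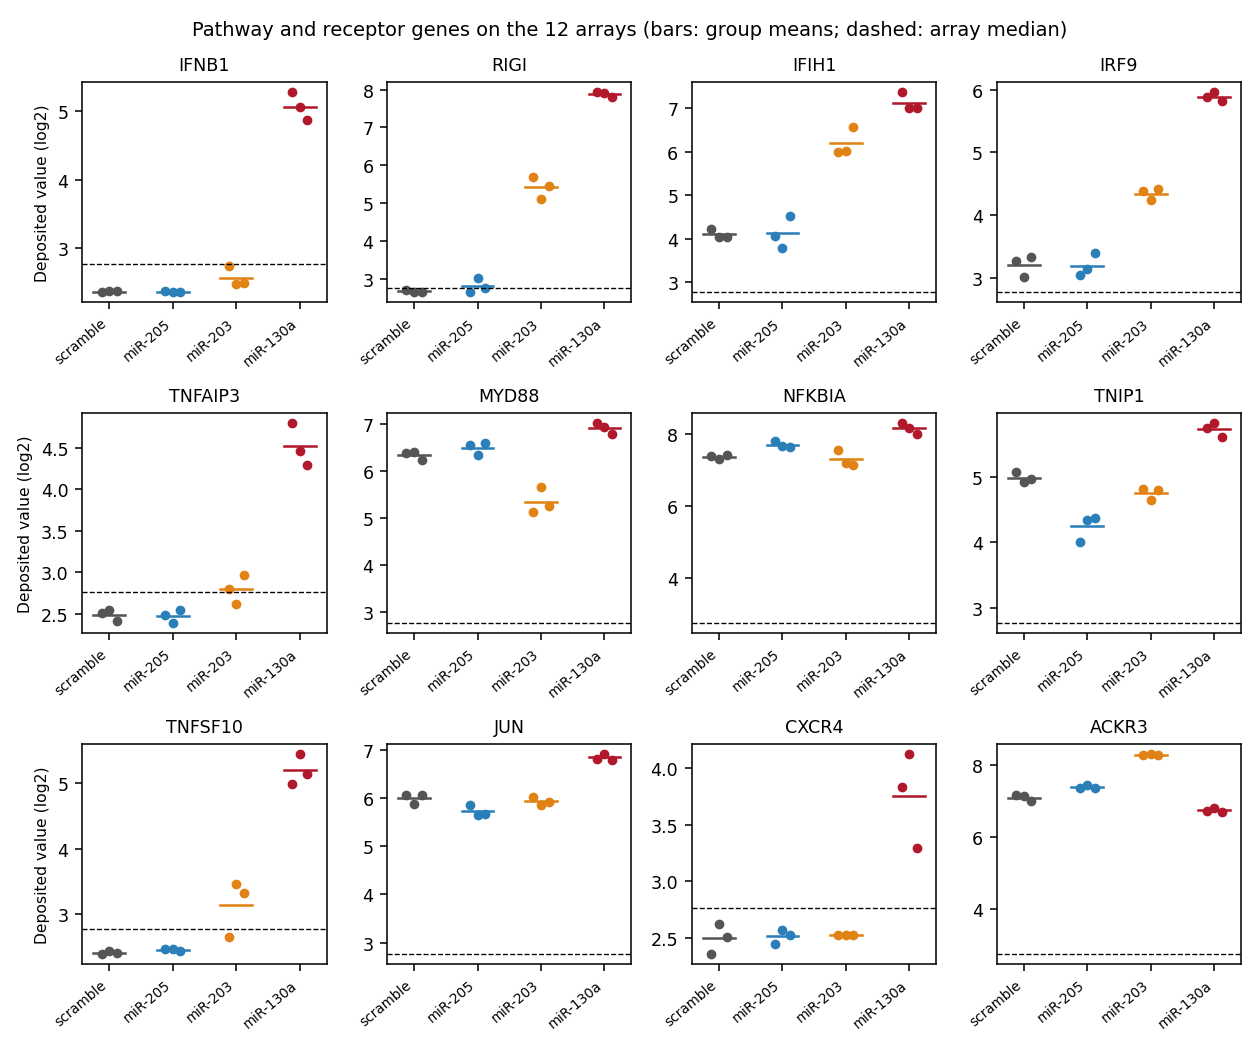
Deposited log2 values on the 12 arrays of 12 pathway, cytokine and receptor genes, by group. Bars are group means and the dashed line is the middle of the 12 array medians. IFNB1 is above the array median in miR-130a arrays alone, at 4.87 to 5.28, while RIGI, IFIH1 and IRF9 are also higher in miR-203 arrays, and ACKR3 is highest in miR-203 arrays and lowest in miR-130a arrays.

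Markers of other cell types were measured beside these results, since leukocytes, endothelial cells and fibroblasts also make chemokines. All 11 leukocyte markers on the arrays, all 6 endothelial and all 3 basal prostate markers were above the median on 0 arrays, and the mean level of the leukocyte list was 2.36 in every group. Of 8 fibroblast and smooth muscle markers 3 were above the median with miR-130a and 2 in each other group. Their mean level was 2.67 to 2.73 with miR-130a and at most 2.64 on every other array, so it moved with the chemokine genes there. Of these markers ACTA2, a smooth muscle actin gene, rose by 0.44 ± 0.11 with miR-130a (adjusted p = 0.0142 by limma) and fell by 0.33 ± 0.11 with miR-203 (adjusted p = 0.0387), with calls lost under 3 and 10 alternatives. As the mean of its probe sets it differed by 0.22 and -0.16. COL1A2, DCN, LUM, PDGFRB and MYH11 were above the median on 0 arrays, and the part of this list in the chemokine readings was not tested. All 8 luminal prostate markers were above it in every group, at mean levels from 8.15 to 8.19 with miR-130a, 7.67 to 7.77 with miR-203, 8.23 to 8.31 with miR-205 and 8.11 to 8.24 in scramble arrays. The 3′ to 5′ difference of ACTB, a sign of RNA quality, lay between 2.18 and 2.66 and overlapped between groups. That of GAPDH was 0.740 to 0.798 with miR-203, above the 0.722 to 0.737 with miR-130a and the 0.601 to 0.732 with miR-205, while scramble arrays (0.563 to 0.902) overlapped all of these. The part of these differences and of the lower luminal level of miR-203 arrays in the chemokine readings was not tested. Across the 6821 tested genes, arrays of 1 group correlated at 0.992 to 0.997 and arrays of different groups at 0.964 to 0.986. With 3 arrays a group an exact test of a single pair of groups cannot give p under 0.1, so the limma fit over all genes is the test used throughout.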

How the data were processed

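Total RNA of 12 LNCaP samples, 3 in each of 4 groups, was measured on arrays with 22277 probe sets. The deposited table holds log2 values made by the authors. The submitters' processing notes list RMA, limma and R 2.9.0 without role or order, and how background was treated is not given in the sources used here. Samples are named biological replicates in the labels, but nothing says whether they were separate cultures, so p-values measure the spread between these arrays. The files give no depth, and the number of arrays limits the precision.

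Symbols came from the platform annotation: 19070 probe sets have 1 symbol and were used, 1043 have several and 2164 have none. Where a gene had several probe sets, the one of highest mean over the arrays stood for it. Group means over all 12 arrays were fitted with limma 3.58.1 in R 4.3.3 and eBayes (8 residual and 4.84 prior degrees of freedom), with two-sided tests and Benjamini-Hochberg adjustment. In simulated data for miR-130a against scramble (6821 genes) 73% of 100 genes shifted by 0.5 log2 and 100% of 100 shifted by 1 were recovered. Only the miR-130a group was shifted there, with normal noise and no lowest value, so recovery in these data may differ. Alternatives covered the scaling, dim filter, probe set, prior, weights, replicate block, arrays fitted and each array left out. The text names the 9 genes, up to 4 genes of each list with the largest difference from scramble past the threshold in part, and the 3 genes most correlated with each tested gene. Members and lists were chosen with earlier results of these data known.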

Additional observations from a re-analysis of the deposited data

How the results depend on the processing

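CXCL10, CXCL11 and CCL5 kept their direction where called and their side of the threshold in 375 of 375 refitted differences. For miR-130a against scramble the highest adjusted p by limma over the refits was 1.73e-08 for CXCL10, 1.14e-07 for CXCL11 and 1.41e-08 for CCL5. For miR-203 against scramble it was 1.98e-05, 0.00110 and 6.36e-06. Scramble is dim for all 3 genes, so the fitted differences behind these tests are not given as sizes. Between miR-130a and miR-203, both bright, the differences of CXCL10, CXCL11 and CCL5 lay between 3.48 and 3.78, 4.46 and 4.96, and 3.37 and 3.59 log2. With no filter on dim genes CXCL8 joined the calls of miR-130a against scramble, miR-203 and miR-205, making 4. Of all 11963 genes 624, 1215 and 1045 were called higher in those comparisons. The fit of only the 6 arrays compared tested 0 of the chemokine genes for miR-205 against scramble. With each array left out in turn, 3 genes stayed called in every comparison but miR-205 against scramble, where 0 were.

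The counts of all genes called stayed within 1.5 times in 146 of 146 refits. Leaving out 1 array they ran from 1163 to 1731 for miR-130a against scramble, 2091 to 2467 for miR-203 and 1302 to 1926 for miR-205, from 2331 to 2863 for miR-130a against miR-203, 1833 to 2435 for miR-130a against miR-205 and 2106 to 2634 for miR-203 against miR-205, and from 3743 to 4149 for any difference. Deviations of same-numbered arrays from their group means correlated at -0.11 to 0.31 over 18 pairs, of which 3 were over 0.1. Their mean r was 0.034, against -0.017 for arrays of different numbers, and 10 of 12 arrays correlated best with their own number. The main fit did not use the numbers as pairing, and whether same-numbered arrays share a batch was not tested. With the replicate number as a block 1631, 2486 and 1751 genes were called against scramble for miR-130a, miR-203 and miR-205, and 3, 3 and 0 chemokine genes. Bounds move with the level taken as dim: at 1 log2 above the lowest value CXCL10, CXCL11 and CCL5 were at least 96.3-fold, 43.8-fold and 48.4-fold higher with miR-130a than with scramble, and at least 7.68-fold, 1.70-fold and 4.26-fold with miR-203.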
